A study of Homo sapiens with 9 samples.

Results

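Chemokines are small secreted proteins that guide moving cells, and their receptors are membrane proteins that signal through G proteins. The family was read here from 59 array probe sets with a single gene symbol, chosen by their names (CCL, CXCL, CX3CL and XCL ligands, and CCR, CXCR, CX3CR, XCR and ACKR receptors), out of 19460 such probe sets. They stand for 56 of the 18417 genes measured: 36 ligands, 16 signalling receptors and 4 atypical receptors of the ACKR type, which bind chemokines and remove them without G protein signalling. The rule reads gene names alone.

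The cells were H9, an established human embryonic stem cell line, carrying a TCF7L1 transgene under doxycycline control (H9-TCF7L1). TCF7L1 is a TCF/LEF factor that mostly represses Wnt target genes. RNA was hybridised to 9 Affymetrix arrays in 3 groups of 3: cells kept 48 h in PS differentiation medium with Dox at 1 ug/ml, cells kept 48 h in PS differentiation medium alone, and untreated cells grown in mTeSR1, which keeps such cells pluripotent. PS stands for primitive streak, the embryonic structure that gives rise to mesoderm and endoderm. All groups carry the transgene, no group received Dox without it or Dox in mTeSR1, and the labels do not say whether the line is a clone or whether the replicates came from separate cultures. The p-values therefore speak only of the spread among these 9 arrays, which may be technical. Median intensity was alike on all arrays, between 200.4 and 216 over all probe sets, and replicates correlated at 0.9889 to 0.9968.

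The best known chemokine system of early embryos is CXCL12 with its signalling receptor CXCR4 and its scavenging receptor ACKR3. CXCR4 is widely used as a surface marker of definitive endoderm made from human pluripotent cells, and CXCL12 signalling guides migrating endoderm and germ cells in vertebrate embryos. The ligands encoded together on chromosome 4 (CXCL1, CXCL2, CXCL3, CXCL5, CXCL6 and CXCL8) attract neutrophils through CXCR1 and CXCR2, and their genes are textbook targets of the inflammatory factor NF-kB.

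Induction was checked on TCF7L1 itself, whose intensities were 13100.2, 12433 and 2699 with Dox, 1275, 1542 and 1611 in PS medium, and 3718, 3878 and 3572 in untreated cells. The third Dox array stood apart from the other 2 in this respect, and calls that were lost or gained without it are given beside the genes concerned. Streak markers differed between the groups, and their summed intensity on 10 genes ran from 16586 to 27331 with Dox, from 83081 to 103253 in PS medium and from 2103 to 2165 in untreated cells. Definitive endoderm markers, with CXCR4 among the 8, summed to between 12128 and 18155 with Dox, 34981 and 56308 in PS medium, and 1545 and 1618 in untreated cells. The 9 measured amnion and trophectoderm markers summed to between 29583 and 33729.8 with Dox, 17022 and 17624 in PS medium, and 2759.8 and 3083 in untreated cells. TFAP2A held the largest part, with means of 17114, 8440 and 202 in that order. In PS medium against untreated cells 5 of the 9 were called higher and 2 lower. With Dox against PS medium 7 were called higher and 0 lower, while the HAND1 mean was 2469 with Dox and 3656 in PS medium. CDX2 means were alike, at 1211, 1107 and 1148. The 8 measured core pluripotency markers summed to between 20707 and 21264 with Dox, 14719 and 17221 in PS medium, and 27509.5 and 29025 in untreated cells. The 10 fibroblast markers, 4 of them under the dim mark given next in every group, summed to between 3488 and 4319.7 with Dox, 3473 and 3735 in PS medium, and 6442 and 6632 in untreated cells.

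Most of the family was dim. No detection call was used here, so the 95th percentile of 341 olfactory receptor genes served as a descriptive mark (148 with Dox, 146 in PS medium and 140.0 in untreated cells), and probe sets differ in brightness, so it is only a guide. Of the 56 genes, 36 lay at or under the mark in every group, 12 lay above it in every group, and the other 8 in some groups. Across all genes 30.1% lay at or under it with Dox, 30.1% in PS medium and 28.6% in untreated cells. Of the 20 CC ligands 15 were dim throughout, as were 5 of the 14 CXC ligands, 12 of the 16 signalling receptors and 3 of the 4 atypical receptors.

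Leukocytes, the usual bearers of most of these receptors, were represented by 13 measured markers. Their summed intensity was 2738 to 3069 with Dox, 1715 to 1807 in PS medium and 1826 to 1962 in untreated cells, and 5 of the 13 were under the mark in every group. PTPRC, the pan-leukocyte antigen CD45, had group means of 22.7, 21.4 and 23.9 in the same order. The higher sum with Dox lay in LCP1, an actin-bundling protein of leukocytes that other cells can also make, at 1393 with Dox, 137 in PS medium and 147 in untreated cells.

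**Figure D1:**
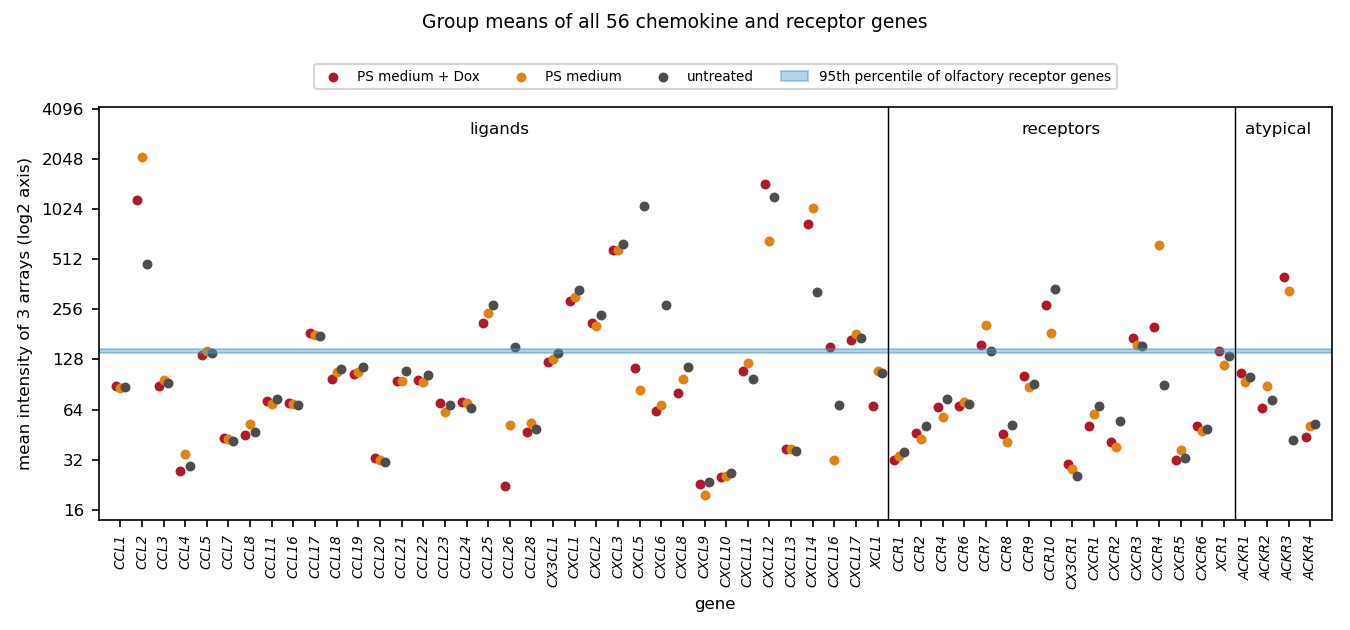
Mean deposited intensity (log2 axis) of all 56 genes in PS medium with Dox, PS medium and untreated cells, 3 arrays each, with the olfactory receptor mark as a band. Most genes lie under the band in all groups, and the groups part at CCL2, CCL26, CXCL5, CXCL6, CXCL12, CXCL14, CXCL16, CXCR4 and ACKR3.

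Differences were tested with limma on quantile-normalized log2(intensity + 16) values across all 18417 genes, calling a gene at a Benjamini-Hochberg adjusted p under 0.05. Fold changes are on that scale and understate changes of dim genes, whereas the intensities quoted are as deposited. Between PS medium and untreated cells 12 of the 56 genes were called, 5 higher and 7 lower (21.4%), against 29.8% of all genes (14.2% higher and 15.7% lower). Between PS medium with Dox and PS medium alone 6 were called, 3 higher and 3 lower (10.7%), against 17.4% of all genes (8.91% higher and 8.44% lower). Between PS medium with Dox and untreated cells 11 were called, 4 higher and 7 lower (19.6%), against 30.3% of all genes (15.3% higher and 14.9% lower). Calls of at least 2-fold numbered 7, 3 and 7 in these comparisons, where 5.65%, 3.33% and 5.21% of all genes passed both limits. The median log2 change over the 56 was -0.01, -0.01 and 0.00 in these comparisons, and -0.01, 0.00 and 0.00 over all genes. In all, 16 genes were called in at least 1 comparison. The comparisons share arrays and are therefore not separate evidence.

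**Figure D2:**
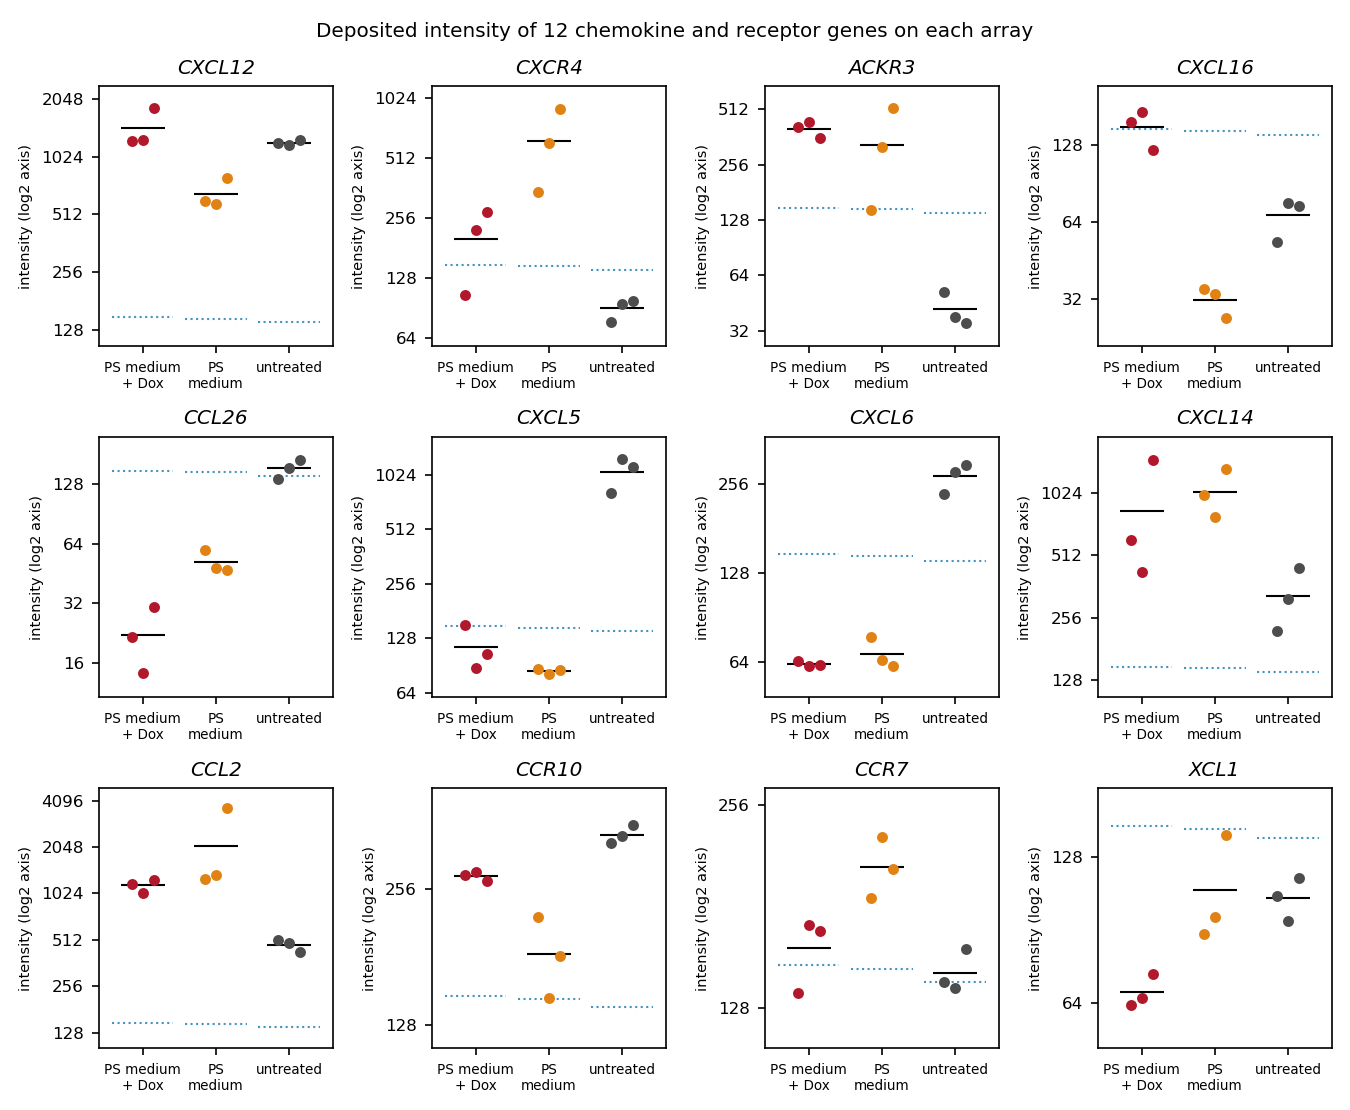
Deposited intensity (log2 axis) on each of the 9 arrays for 12 of the genes called in any comparison; points are arrays, black bars are means of 3 arrays, and dotted lines are the olfactory receptor mark of that group. CXCL12 is lowest and CXCR4 highest in PS medium alone, CXCL5 and CXCL6 are low in both PS groups, and CXCL16 is lowest in PS medium.

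CXCL12 and its signalling receptor CXCR4 changed in opposite directions in each comparison in which both passed. The ligand (probe set 7933194, chromosome 10) read 1234, 1258 and 1833 with Dox, 599, 579 and 791 in PS medium, and 1203, 1184 and 1246 in untreated cells. Every PS array was below every array of the other groups, and the Dox arrays overlapped the untreated ones. The ligand fell 1.87-fold in PS medium against untreated cells (log2 -0.90 ± 0.15, SE, n = 3 per group, limma adjusted p = 0.00109) and was 2.15-fold higher with Dox than in PS medium alone (log2 1.11 ± 0.15, limma adjusted p = 0.000540). Without the third Dox array that difference was 0.92 (limma adjusted p = 0.000418). With Dox against untreated cells it differed by 0.20 ± 0.15 (limma adjusted p = 0.369). Among the Dox arrays the highest CXCL12 value, 1833, was on the array with the lowest TCF7L1. The summed core pluripotency markers were also lowest in PS medium alone. The largest part of that lay in SOX2, at 3570 with Dox, 807 in PS medium and 4274 in untreated cells. With Dox against PS medium 4 of the 8 markers were called higher and 0 lower. USP44 stayed low in both PS groups (597, 533 and 3147 in the same order). The part of these markers in the CXCL12 result was not tested.

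CXCR4, the receptor through which CXCL12 signals to G proteins, changed the other way. Its probe set (8055465, chromosome 2) read 105, 223 and 273 with Dox, 346, 608 and 902 in PS medium, and 77.3, 95.1 and 97.8 in untreated cells. Every PS array lay above every array of the other groups, and the spread among the 3 PS arrays was wide (mean 619 ± 278, SD). CXCR4 rose 5.68-fold in PS medium against untreated cells (log2 2.51 ± 0.35, limma adjusted p = 0.000306) and was 2.87-fold lower with Dox than in PS medium (log2 -1.52 ± 0.35, limma adjusted p = 0.0115). Without the third Dox array the difference was -1.77 ( limma adjusted p = 0.00815). With Dox against untreated cells the difference of 0.98 ± 0.35 missed the threshold (limma adjusted p = 0.0554), but passed with the replicate number as a block (limma adjusted p = 0.00194). It was 0.74 without the third Dox array (limma adjusted p = 0.172). With an offset of 64 it was 0.75 (limma adjusted p = 0.0812), and with an offset of 1 it was 1.09 (limma adjusted p = 0.0482). All untreated arrays and the first Dox array were under the olfactory receptor mark. Since arrays read bulk RNA, fewer CXCR4-bearing cells and less CXCR4 RNA per cell cannot be told apart. The summed definitive endoderm and streak markers given above moved in the same directions as CXCR4, which is itself 1 of the 8 endoderm genes. In PS medium against untreated cells all 8 endoderm and all 10 streak genes were called higher. With Dox against PS medium 6 of the 8 and 9 of the 10 were called lower. The NODAL mean was 499 with Dox and 412 in PS medium. The part of these markers in the change of CXCR4 was not tested.

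ACKR3, also known as CXCR7, which binds CXCL12 and carries it into the cell for breakdown (probe set 8049471, chromosome 2), read 409, 436 and 359 with Dox, 146, 319 and 521 in PS medium, and 51.8, 38.1 and 35.4 in untreated cells. Both PS groups lay above all untreated arrays, which were under the olfactory receptor mark, and overlapped each other. ACKR3 rose 5.40-fold in PS medium (log2 2.43 ± 0.33, limma adjusted p = 0.000253) and 7.33-fold in PS medium with Dox (log2 2.87 ± 0.33, limma adjusted p = 8.22e-05), both against untreated cells. Those log2 changes were 1.78 and 2.14 with an offset of 64. Between Dox and PS medium alone it differed by 0.44 ± 0.33 (limma adjusted p = 0.440), and by -0.03 without the first PS array.

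Sequence before the start site of these genes was taken from RefSeq (GRCh38.p14) where its table held it, and 39 of the 56 genes had at least 1 window of 250 bases. The core letters CTTTGA bound by TCF/LEF factors, searched on both strands, occurred in windows of 7 of those 39 genes, and in 11.2% of all 35116 windows (a gene can have several). Of the 10 called genes with a window, CXCL12 and CXCL8 held it. It is shown for CXCL12 because that gene was higher with Dox than in PS medium alone (chr10:44385286-44385315, minus strand, motif in capitals, on the strand opposite to the gene):
CXCL12: agcctgagaaggTCAAAGgccggagcgcac
A match is a description of the letters and no site of binding.

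Of the neutrophil-attracting CXC ligands, CXCL5 and CXCL6 fell in both PS groups against untreated cells. CXCL5 (probe set 8100977) read 152, 87.3 and 104 with Dox, 86.3, 81.2 and 84.7 in PS medium, and 813, 1257 and 1125 in untreated cells. Both PS groups were far below every untreated array, and with 1 exception at 152 all their arrays were under the olfactory receptor mark. Against untreated cells CXCL5 fell 10.7-fold in PS medium (log2 -3.42 ± 0.17, limma adjusted p = 1.92e-07) and 8.34-fold with Dox (log2 -3.06 ± 0.17, limma adjusted p = 4.67e-07).

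CXCL6 (probe set 8095688) fell in the same comparisons. It read 64.1, 61.6 and 62.4 with Dox, 77.5, 64.9 and 62.0 in PS medium, and 237, 281 and 297 in untreated cells, and every array of both PS groups lay below every untreated array. It fell 3.36-fold in PS medium (log2 -1.75 ± 0.10, limma adjusted p = 5.23e-07) and 3.57-fold with Dox (log2 -1.84 ± 0.10, limma adjusted p = 4.05e-07), both against untreated cells. The summed fibroblast markers were also lower in both PS groups than in untreated cells. THY1 held the largest part of the lower sums, at 816 with Dox, 1325 in PS medium and 4256 in untreated cells. COL1A2 went the other way (1237, 1018 and 629 in the same order). In PS medium against untreated cells 3 of the 10 markers were called lower and 1 higher. COL3A1, LUM, DCN and FAP were under the mark in every group. The summed core pluripotency markers were lower in both PS groups too, and all 8 were called lower in PS medium against untreated cells. The part of either marker list in the falls of CXCL5 and CXCL6 was not tested. Neither ligand passed the test with Dox against PS medium (CXCL5 0.36 ± 0.17, limma adjusted p = 0.196, and CXCL6 -0.09 ± 0.10, limma adjusted p = 0.644).

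Most neighbours were not called. Along chromosome 4 the order of protein-coding genes is CXCL8, CXCL6, PF4V1, CXCL1, PF4, PPBP, CXCL5, CXCL3 and CXCL2, so CXCL5 and CXCL6 are separated by CXCL1 and the platelet factor genes. CXCL1 averaged 289 ± 34.9 with Dox, 305 ± 19.5 in PS medium and 335 ± 11.4 in untreated cells (SD, n = 3 each). CXCL2 averaged 211 ± 12.2, 202 ± 12.2 and 238 ± 8.33 in the same order, and CXCL3 579 ± 41.8, 579.6 ± 12.3 and 631 ± 10.6. None of these 3 passed in any comparison, with log2 changes between -0.20 and 0.05, although CXCL1 passed with Dox against untreated cells without the third Dox array (-0.28, limma adjusted p = 0.0498). PF4V1, a platelet factor variant, fell by 0.34 on the log2 scale in PS medium (SE 0.08, limma adjusted p = 0.00888), and PF4 and PPBP were not called.

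CXCL8, also named interleukin 8, was under the mark in all groups, at 83.2, 87.8 and 69.9 with Dox, 102, 93.6 and 98.1 in PS medium, and 129.6, 111 and 105 in untreated cells. It fell by 0.40 on the log2 scale with Dox against untreated cells (SE 0.11, limma adjusted p = 0.0168), a call lost without the first untreated array (limma adjusted p = 0.0742) or the third Dox array (limma adjusted p = 0.0592). Its receptors CXCR1 and CXCR2 were under the mark too. CXCR2, the receptor shared by these ligands, averaged 40.9 ± 7.05 with Dox, 38.3 ± 6.23 in PS medium and 55.0 ± 7.53 in untreated cells, and its fall by 0.35 on the log2 scale in PS medium (SE 0.12, limma adjusted p = 0.0421) was lost in 5 of the 9 fits that left out an array, with adjusted p up to 0.154. CXCR1, which binds CXCL6 and CXCL8, averaged 50.8 ± 0.857 with Dox, 59.9 ± 5.50 in PS medium and 66.9 ± 4.56 in untreated cells. It fell by 0.27 on the log2 scale with Dox against untreated cells (SE 0.08, limma adjusted p = 0.0237), and 4 of the 9 such fits lost the call, the one without the third Dox array among them (-0.27, limma adjusted p = 0.0617).

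**Figure D3:**
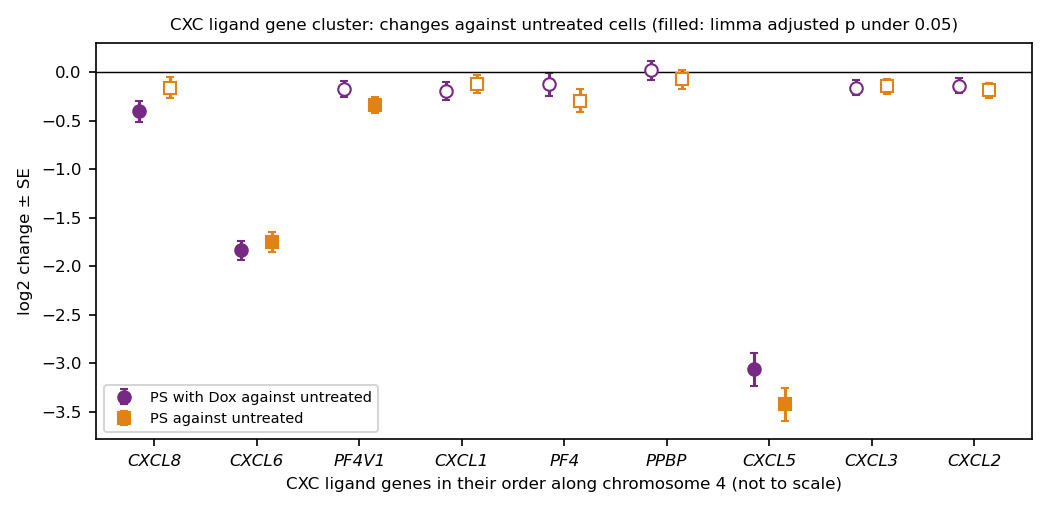
Log2 change (± SE, 3 arrays per group) of the CXC ligand genes of chromosome 4 in their order along the chromosome, for PS medium with Dox and PS medium alone, each against untreated cells. CXCL6 and CXCL5 lie between -3.42 and -1.75, and the other genes between -0.40 and 0.02.

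CXCL1 and PF4V1 are among the genes between CXCL5 and CXCL6, and PF4V1 was called lower in PS medium against untreated cells. The sequences before the start sites are shown because CXCL5 and CXCL6 moved together while CXCL1, CXCL2 and CXCL3 were not called. These are the 250 bases before the RefSeq start of each gene (GRCh38.p14; CXCL5 at chr4:73998678-73998927, minus strand, and CXCL6 at chr4:73836428-73836677, plus strand), with the kappaB letters GGAATTTCC, a form of the NF-kB site, in capitals:
CXCL5: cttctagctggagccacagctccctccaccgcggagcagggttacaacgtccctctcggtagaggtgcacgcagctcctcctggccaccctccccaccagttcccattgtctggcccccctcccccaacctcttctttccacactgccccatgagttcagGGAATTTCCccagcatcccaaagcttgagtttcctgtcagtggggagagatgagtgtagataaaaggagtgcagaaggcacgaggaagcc
CXCL6: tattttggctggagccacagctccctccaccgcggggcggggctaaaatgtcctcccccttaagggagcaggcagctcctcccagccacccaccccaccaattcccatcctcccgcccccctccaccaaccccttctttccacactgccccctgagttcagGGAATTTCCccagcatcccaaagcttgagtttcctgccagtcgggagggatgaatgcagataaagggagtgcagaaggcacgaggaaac
In a global alignment the stretches of CXCL5 and CXCL6 were identical at 214 of 251 positions (85.3%), whereas CXCL5 matched CXCL1, CXCL3 and CXCL2 at 52.8%, 52.8% and 54.3% and CXCL8 at 47.8%. CXCL1 matched CXCL3 at 81.4% and CXCL2 at 70.1%. Whether this likeness bears on their levels was not tested.

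The kappaB letters stood in all 6 genes. GGAATTTCC, searched on both strands, occurred in windows of 8 of the 39 genes with a window (CXCL1, CXCL2, CXCL3, CXCL5, CXCL6, CXCL8, CXCL10 and CXCL11) and in 0.413% of all 35116 windows, and in these genes it overlapped no CTTTGA match. The 30 bases around it in the other genes of the cluster are shown for comparison with CXCL5 and CXCL6 (CXCL1 at chr4:73869305-73869334, plus strand, CXCL2 at chr4:74099253-74099282 and CXCL3 at chr4:74038748-74038777, both minus strand, and CXCL8 at chr4:73740468-73740497, plus strand):
CXCL1: tggaactccgGGAATTTCCctggcccgggg
CXCL2: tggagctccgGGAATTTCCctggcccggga
CXCL3: tggagctccgGGAATTTCCctggcccggcc
CXCL8: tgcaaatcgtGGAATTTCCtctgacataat
In each the motif lay 77 to 91 bases before the start, and in CXCL5 and CXCL6 it lay 90 and 89 bases before it.

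CXCL14, an ancient CXC ligand found in epithelia, rose in PS medium. Its probe set (8114249, chromosome 5) read 607, 424 and 1477 with Dox, 998, 783 and 1342 in PS medium, and 220.3, 315 and 444 in untreated cells. PS arrays lay above all untreated arrays, and the Dox arrays ran from within the untreated range to above the highest PS array. The rise in PS medium was 3.13-fold against untreated cells (log2 1.65 ± 0.40, limma adjusted p = 0.00965). With Dox the difference from untreated cells was 1.17 ± 0.40 (limma adjusted p = 0.0476), and 5 of the 9 fits without an array lost it, the lowest value being 0.66 without the third Dox array (limma adjusted p = 0.122). Against PS medium the Dox group differed by -0.47 ± 0.40 (limma adjusted p = 0.505), and without the third Dox array by -0.98 (limma adjusted p = 0.0431).

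CXCL16, a membrane-bound ligand that also takes up oxidised lipoprotein, was the family member with the highest fold rise with Dox against PS medium. Its probe set (8011713, chromosome 17) read 159, 173 and 123 with Dox, 35.0, 33.2 and 26.8 in PS medium, and 53.6, 76.1 and 74.1 in untreated cells, with no overlap between any groups. With Dox it rose 3.50-fold against PS medium (log2 1.81 ± 0.15, limma adjusted p = 2.25e-05) and 2.05-fold against untreated cells (log2 1.03 ± 0.15, limma adjusted p = 0.000470). In PS medium alone it fell 1.71-fold against untreated cells (log2 -0.78 ± 0.15, limma adjusted p = 0.00283). Only the Dox mean of 152 ± 26.0 was above the olfactory receptor mark, and the log2 rise with Dox was 1.17 with an offset of 64 and 2.22 with an offset of 1. Its receptor CXCR6 was dim in all groups, with means of 51.3, 47.3 and 49.3 for Dox, PS medium and untreated cells.

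Among CC ligands, CCL2, a monocyte attractant also called MCP-1, rose in both PS groups. Its probe set (8006433, chromosome 17) read 1172, 1036 and 1253 with Dox, 1269, 1340.0 and 3658 in PS medium, and 514, 489 and 428 in untreated cells. Every array in PS medium, with or without Dox, was above every untreated array, and the third PS array stood far above the rest. The rise was 3.72-fold in PS medium (log2 1.90 ± 0.32, limma adjusted p = 0.00111) and 2.35-fold with Dox (log2 1.23 ± 0.32, limma adjusted p = 0.0139), both against untreated cells. Without the third PS array the first was 1.40 on the log2 scale, and Dox against PS medium was not called with all arrays (-0.67 ± 0.32, limma adjusted p = 0.205). Other genes of its cluster on chromosome 17, CCL7, CCL11, CCL8 and CCL1, were dim in all groups, and none was called. CCR2, the CCL2 receptor, had means of 46.0 with Dox, 42.8 in PS medium and 51.1 in untreated cells, all under the mark.

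CCL26, an eotaxin that attracts eosinophils, fell in every comparison. Its probe set (8140358, chromosome 7) read 21.7, 14.4 and 30.7 with Dox, 59.4, 48.1 and 47.2 in PS medium, and 136, 153 and 169 in untreated cells, and no groups overlapped. In PS medium it fell 2.43-fold against untreated cells (log2 -1.28 ± 0.14, limma adjusted p = 4.66e-05). With Dox it fell 1.79-fold against PS medium (log2 -0.84 ± 0.14, limma adjusted p = 0.00161) and 4.36-fold against untreated cells (log2 -2.12 ± 0.14, limma adjusted p = 1.27e-06). Only the untreated mean of 153 was above the mark, and the changes with Dox were -0.43 against PS medium and -1.31 against untreated cells with an offset of 64, and -1.23 and -2.73 with an offset of 1.

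CCL25, a gut and thymus ligand, read 197, 186 and 248 with Dox, 257, 208 and 263 in PS medium, and 253, 270.3 and 292 in untreated cells, and the Dox arrays lay below the untreated ones. Its fall with Dox against untreated cells (log2 -0.33 ± 0.11, limma adjusted p = 0.0476) was lost in 6 of the 9 fits without an array. XCL1, lymphotactin, has a near-identical copy, XCL2, so its values are uncertain. Its probe set (8180348, chromosome 1) read 63.2, 65.5 and 73.4 with Dox, 88.8, 96.5 and 143 in PS medium, and 106, 94.4 and 116 in untreated cells, all under the mark. It fell by 0.56 on the log2 scale with Dox against PS medium (SE 0.15, limma adjusted p = 0.0231), a call lost without the first Dox array (limma adjusted p = 0.0880), and by 0.50 against untreated cells (limma adjusted p = 0.0252), a call lost without the first or the third untreated array or the first Dox array (limma adjusted p = 0.0678, 0.0833 and 0.0855). Its other probe set gave changes of -0.68 and -0.55. The XCL2 probe set, also under the mark, averaged 33.8 with Dox, 38.9 in PS medium and 41.0 in untreated cells and was not called (Dox against PS medium -0.14, limma adjusted p = 0.475).

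Of the signalling receptors other than CXCR4, 2 were above the mark in all groups and changed. CCR10, the receptor of the epithelial ligands CCL27 and CCL28 (probe set 8015681, chromosome 17), read 275, 279 and 266 with Dox, 222, 147 and 182 in PS medium, and 323, 334 and 355 in untreated cells, with no overlap. It fell 1.77-fold in PS medium against untreated cells (log2 -0.82 ± 0.12, limma adjusted p = 0.000348) and was 1.45-fold higher with Dox than in PS medium (log2 0.54 ± 0.12, limma adjusted p = 0.00821). With Dox against untreated cells CCR10 was not called (log2 -0.28 ± 0.12, limma adjusted p = 0.0966). That difference passed with only these groups fitted (limma adjusted p = 0.0251) or without the first or the second PS array. Its ligand CCL28 was dim in all groups, at 46.6 with Dox, 53.4 in PS medium and 48.9 in untreated cells.

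CCR7, which guides lymphocytes and dendritic cells to lymph nodes (probe set 8015031, chromosome 17), read 135, 169.9 and 166 with Dox, 186, 229.7 and 205 in PS medium, and 139.9, 137 and 157 in untreated cells, and every PS array lay above every array of the other groups. It rose 1.43-fold in PS medium against untreated cells (log2 0.51 ± 0.12, limma adjusted p = 0.00778). Between Dox and PS medium it differed by -0.37 ± 0.12 (limma adjusted p = 0.0612), which passed with the replicate number as a block (limma adjusted p = 0.0157). ACKR2, a scavenger of inflammatory CC ligands that was dim throughout, differed by -0.36 in that comparison (limma adjusted p = 0.0603) and passed with the block (limma adjusted p = 0.0207) and without the third Dox array (-0.44, limma adjusted p = 0.0401). The CCR7 ligands CCL19 and CCL21 were dim in all groups and were not called.

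**Figure D4:**
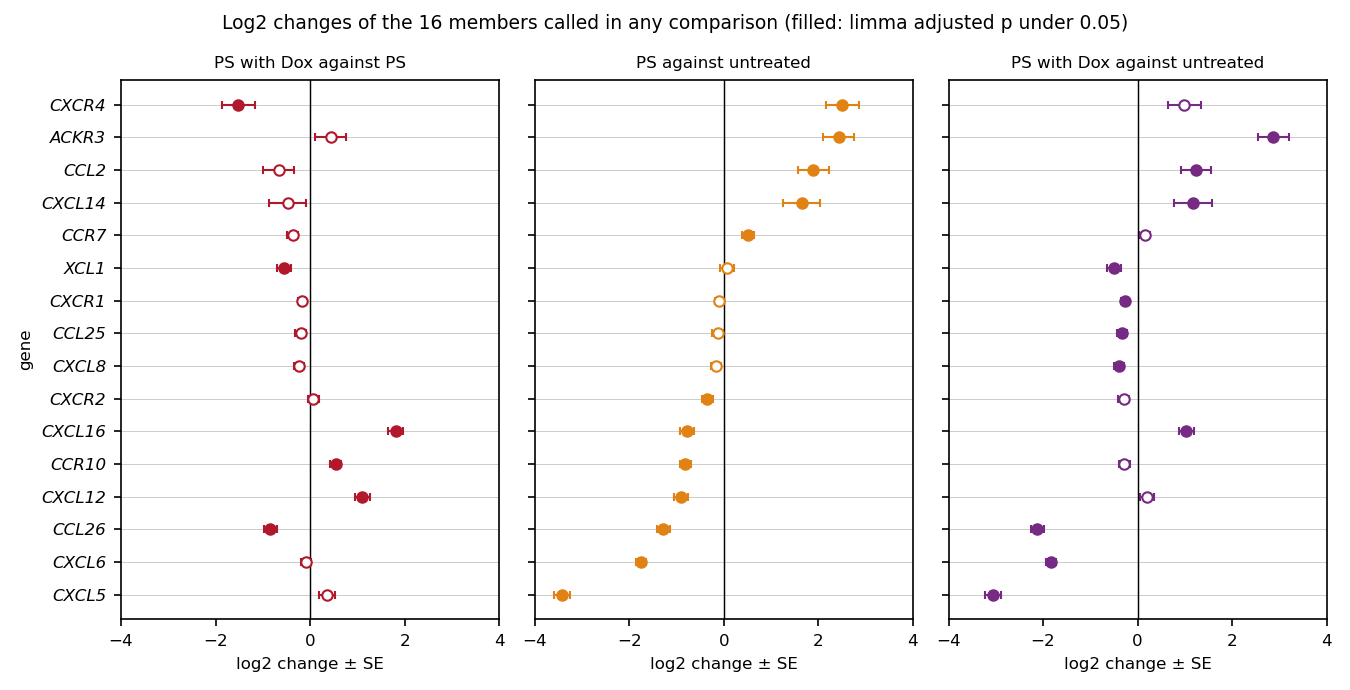
Log2 change (± SE, 3 arrays per group) of the 16 genes called in any comparison, one panel per comparison, ordered by the change in PS medium against untreated cells; filled points passed the limma adjusted p of 0.05. CXCL12, CCR10 and CXCL16 lie left of 0 for PS medium against untreated cells and right of 0 for Dox against PS medium, while CXCR4 does the reverse.

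The other 40 genes were called in no comparison. Their group means ran from 19.7 to 631, their log2 changes were at most 0.36 in size, and their lowest limma adjusted p was 0.0603. Besides CXCL3, CXCL1 and CXCL2, those with the highest means were CCL17 (183 ± 14.3 with Dox, 180.3 ± 12.3 in PS medium, 178 ± 12.5 in untreated cells) and CXCL17 (168 ± 24.5, 181 ± 20.1 and 172 ± 4.74). The interferon-induced ligands CXCL9, CXCL10 and CXCL11 were dim in all groups, at group means of 19.7 to 23.5, 25.1 to 26.5 and 97.6 to 121. CCR2, ACKR4 and XCL1 had a second probe set each, and those of CCR2 and ACKR4 were not called in any comparison either.

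Chemokine receptor signalling and turnover genes, on a list of 37, were described in the same fit. Of 36 measured, 13 rose and 7 fell in PS medium against untreated cells (55.6% called, against 29.8% of all genes, with a median log2 change of 0.06, against -0.01). Dox against PS medium gave 1 rise and 11 falls (33.3%, against 17.4% of all genes, with a median of -0.09, against 0.00). With Dox against untreated cells 7 rose and 10 fell (47.2%, against 30.3% of all genes).

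In PS medium PREX1, a Rac activator that responds to G protein beta-gamma subunits, rose by 1.99 ± 0.13 on the log2 scale (limma adjusted p = 1.26e-06). ARRB1, an arrestin that uncouples receptors from G proteins, rose by 1.90 ± 0.12, and RGS16, which speeds G protein shut-off, by 1.80 ± 0.10. DPP4, the surface protease that inactivates CXCL12 by clipping its first residues, fell by 1.62 (SE 0.20). In the Dox comparison with PS medium, RGS16 fell by 1.96 (SE 0.10), GNG11, a G protein gamma subunit, by 1.74 (SE 0.11), PREX1 by 1.73 (SE 0.13) and ARRB1 by 1.42 (SE 0.12). RGS2 rose by 0.42 ± 0.13 (limma adjusted p = 0.0498). DPP4 averaged 79.1 with Dox, 87.5 in PS medium and 304 in untreated cells, so it was low in both PS groups. GNG11 was above the olfactory receptor mark only in PS medium, at a mean of 295.

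**Figure D5:**
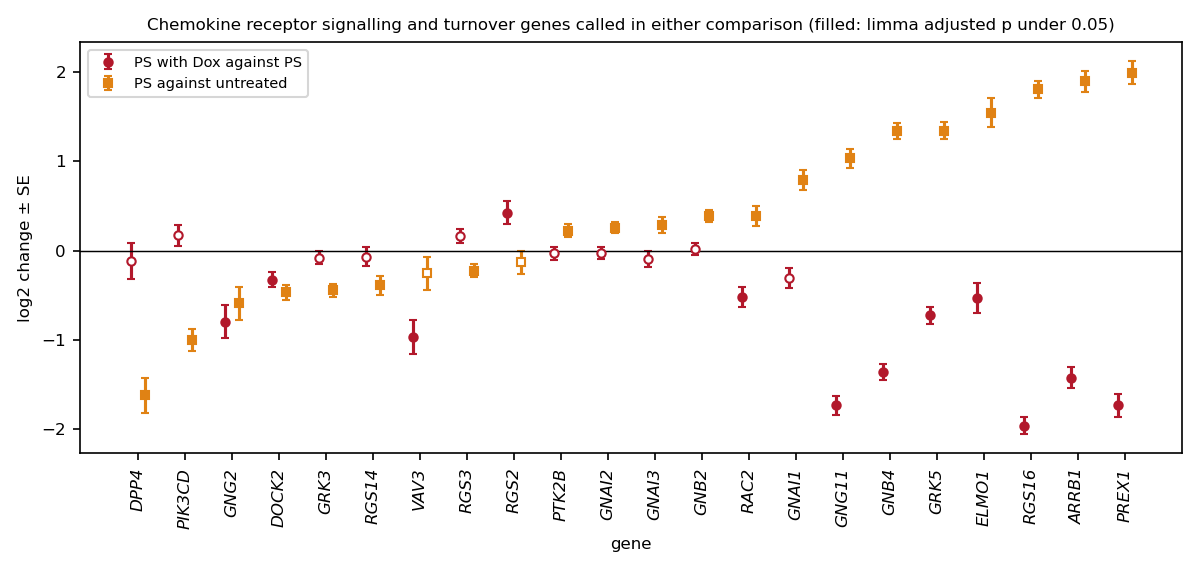
Log2 change (± SE, 3 arrays per group) of the 22 chemokine receptor signalling and turnover genes called in either comparison, for PS medium with Dox against PS medium and for PS medium against untreated cells; both share the PS arrays. PREX1, ARRB1, RGS16, GNB4, GNG11, GRK5, ELMO1 and RAC2 are above 0 in PS medium against untreated cells and below 0 with Dox against PS medium.

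NF-kB and inflammatory inducer genes, on a list of 31 with 29 measured, rose in 5 cases and fell in 9 in PS medium against untreated cells (48.3%, against 29.8% of all genes, median log2 change 0.05). TLR3, a sensor of double-stranded RNA, fell by 1.68 on the log2 scale (SE 0.14), while NFKBIA, an inhibitor and target of NF-kB, rose by 1.40 ± 0.13, IL6 by 1.13 ± 0.13 and BCL3, an NF-kB cofactor, by 1.07 ± 0.09. With Dox against PS medium 2 rose and 6 fell (27.6%, against 17.4% of all genes, median -0.03), among them IL6 (-0.99 ± 0.13), ICAM1, an adhesion molecule (-0.88 ± 0.13), TNFAIP2 (-0.85 ± 0.12) and IL1A (-0.64 ± 0.12). With Dox against untreated cells 4 rose and 9 fell (44.8%, against 30.3% of all genes). IL6 and IL1A were under the olfactory receptor mark in every group. Their means were 58.0 and 36.3 with Dox, 132 and 65.9 in PS medium, and 52.5 and 129 in untreated cells. TLR3 was above it only in untreated cells, at a mean of 153, and ICAM1 was under it with Dox, at 103.

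Heparan sulphate holds chemokines at the cell surface, and of 21 measured genes for its enzymes and core proteins 5 rose and 7 fell in PS medium against untreated cells (57.1%, against 29.8% of all genes, median -0.16). GPC3, a glypican, fell by 1.07 on the log2 scale (SE 0.11), and NDST1, a heparan sulphotransferase, rose by 0.72 ± 0.08. Dox against PS medium gave 9 rises and 2 falls (52.4%, against 17.4% of all genes, median 0.26), with GPC3 at 1.06 ± 0.11 and SDC2, a syndecan, at 0.84 ± 0.10. With Dox against untreated cells 5 rose and 3 fell (38.1%, against 30.3% of all genes), NDST3 by 1.33 ± 0.14 among the rises. Of 12 measured chemokine-like and related genes that the naming rule leaves out, 3 rose and 2 fell in PS medium against untreated cells (41.7%, against 29.8% of all genes), CMTM6 by 0.43 ± 0.07 and PF4V1 as given above among them. With Dox against PS medium 0 rose (0 at an unadjusted p under 0.05 by limma) and 2 fell (16.7%, against 17.4% of all genes), CMTM7 by 0.87 (SE 0.08) and CMTM6 by 0.38 (SE 0.07). With Dox against untreated cells CMTM7 and CMTM8 fell (16.7%, against 30.3% of all genes), and 0 rose by limma, with 1 at an unadjusted p under 0.05.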

How the data were processed

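Total RNA of 9 samples was measured on Affymetrix whole-transcript arrays. The deposited values are linear intensities per probe set, made with Affymetrix Expression Console 1.1.1 and PLIER 2.0 per the submitters' processing notes. How background was corrected and arrays were normalized is not given in the sources used here. Of 33297 probe sets, 19460 had 1 symbol, 1754 several and 12083 none listed; 19429 of the first took the current symbol of assembly GRCh38.p14 by gene number. The brightest probe set (mean of 9 arrays) stood for each of 18417 genes.

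Intensities were converted to log2(intensity + 16), quantile-normalized and fitted with 1 mean per group and 6 residual degrees of freedom in limma 3.58.1 under R 4.3.3 (eBayes with a trend), with Benjamini-Hochberg adjustment over all genes. The number of arrays limits the precision. Genes named were every member called in any comparison, CXCL12, CXCR4 and ACKR3, the 5 brightest other members, and up to 4 genes per pathway list with the largest called changes; further members and lower-ranked list genes were named after their values were seen. Members and lists were chosen with earlier results of these data known. Alternatives changed the log offset, normalization, dim-gene filter, probe sets, arrays fitted, moderation, replicate block and arrays left out.

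Same-numbered arrays deviated together between Dox and PS medium (correlations 0.245, 0.428 and 0.246) and between Dox and untreated cells (0.246, 0.309 and 0.297). Between PS medium and untreated cells the correlations were 0.0856, 0.397 and 0.271. The labels do not say whether the numbers pair the samples. The main fit used no pairing, so its p-values leave any pairing out, and the replicate block was run as an alternative. Alignments used Biopython 1.88, with the first window of each gene. The procedure was tested on simulated data.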

Additional observations from a re-analysis of the deposited data

How the results depend on the processing

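No called change turned its sign under any alternative, but 3 uncalled values of the 16 called members did when 1 array was left out. The count of chemokine and receptor genes called for PS medium against untreated cells ran from 8 to 14 over all settings. Without the dimmest 25% of genes, which removes members from the test, 3 members were called for Dox against PS medium and 6 for Dox against untreated cells. Leaving out 1 array at a time gave 7 to 12 members for Dox against untreated cells, with 7 without the first untreated array, and 2 to 6 chemokine-like genes outside the rule for PS medium against untreated cells. With the replicate block 11, 8 and 12 members were called for PS medium against untreated cells, Dox against PS medium and Dox against untreated cells, and 8 of the chemokine-like genes in the first of these. All 6 members called for Dox against PS medium were also called with the block, and 4482 genes were called in place of 3196. For Dox against untreated cells 7056 genes were called in place of 5574. For PS medium against untreated cells CXCR2 was lost with the block (limma adjusted p = 0.0505). In that comparison 6936 genes were called in place of 5496. Of the 843 alternative values of these 16 members, 792 kept their side of the threshold, 36 lost and 15 gained a call, and 4 of the other 40 members (ACKR2, CCR4, CXCL1 and CXCL11) gained 12 calls in all; the cause was not tested. With no detection call used, the level of a dim gene could not be told from background.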
